A study of Rattus norvegicus with 16 samples.

Results

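Adult neurogenesis was followed through 8 genes chosen by name for their roles in neural progenitors and newly formed neurons. They were Dcx, Sox11, Sox4, Tubb3, Sox2, Nes, Fabp7 and Mki67. A transcript cluster (the set of probes that an Affymetrix array reads for 1 gene) carried the symbol of 7 of the 8 genes, with 1 cluster each, among 27342 clusters and 14324 named genes in all. Mki67, which encodes a nuclear protein of dividing cells, had no cluster paired with it in the annotation used here and was not analysed here.

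The animals were male Sprague-Dawley rats, 15 months old when the experiment began and left to acclimatize before the feeding. They were given standard chow (control) or the same chow with curcumin, the yellow polyphenol of turmeric, for 6 or 12 weeks. Hippocampus and cortex were each profiled in the 4 groups, with 2 arrays per tissue and group and 16 arrays in total. Each array carried RNA pooled from 3 rats. The labels call the arrays of a group biological replicates, whereas the design text speaks of duplicate arrays, so the spread between them, on which every p-value here rests, may be partly technical. The 12-week rats were older at death than the 6-week rats and may have been processed apart from them, and these factors cannot be told apart from the length of feeding. By the study's design, rats of both diets had behavioural tests and daily injections of BrdU, a label of dividing cells, near the end of feeding. Whether the rats used for the arrays were all included is not stated separately. The tissues were whole dissected pieces, so that fewer cells of a type and less RNA per cell cannot be told apart.

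In the adult brain new neurons arise in the dentate gyrus of the hippocampus and along the wall of the lateral ventricle, from which young neurons migrate to the olfactory bulb. Radial glia-like stem cells express the transcription factor Sox2, the intermediate filament nestin (Nes) and the brain lipid-binding protein Fabp7. Their dividing progeny switch on Sox11 and Sox4, and the immature neurons that follow contain doublecortin (Dcx) and the neuronal tubulin Tubb3. Few of these genes belong to the lineage alone: Sox2 and Fabp7 are also made by astrocytes, and Tubb3 by mature neurons, and in old rodents the lineage is a very small share of either tissue.

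The stretches before an annotated transcription start of 3 members are shown because the results below turn on these genes. Each runs 5′ to 3′ on the gene's own strand over the 250 bases before the start that the RefSeq promoter table uses (build GRCr8). Capitals mark matches, on either strand, to 4 short motifs that were searched: the E-boxes CAGCTG and CAGATG, the Sox motif ACAANG and the TATA box TATAAA. Dcx lay at chrX:112304162-112304411 on the minus strand, Fabp7 at chr20:37669356-37669605 and Sox2 at chr2:119464881-119465130, both on the plus strand. By the RefSeq gene bounds given below, the Sox2 stretch ends where the gene begins, whereas the Dcx and Fabp7 stretches lie inside their genes, before a start downstream of the outermost one.
Dcx: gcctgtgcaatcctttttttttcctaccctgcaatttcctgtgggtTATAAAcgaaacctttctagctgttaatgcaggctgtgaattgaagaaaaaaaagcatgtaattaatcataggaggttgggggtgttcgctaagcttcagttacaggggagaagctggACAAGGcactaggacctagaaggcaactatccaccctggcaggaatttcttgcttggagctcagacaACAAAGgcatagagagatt
Fabp7: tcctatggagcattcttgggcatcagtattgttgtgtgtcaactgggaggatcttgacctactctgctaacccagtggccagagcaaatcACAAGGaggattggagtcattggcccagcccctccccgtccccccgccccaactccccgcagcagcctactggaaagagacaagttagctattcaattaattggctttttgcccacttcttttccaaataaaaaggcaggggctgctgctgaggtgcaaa
Sox2: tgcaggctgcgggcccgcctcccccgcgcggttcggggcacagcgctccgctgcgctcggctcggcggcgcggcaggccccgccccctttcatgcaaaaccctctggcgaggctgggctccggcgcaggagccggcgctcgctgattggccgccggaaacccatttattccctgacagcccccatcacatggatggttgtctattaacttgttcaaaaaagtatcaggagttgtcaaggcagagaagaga
The Dcx stretch held 2 Sox motifs, beginning 86 and 19 bases before the start, and a TATA box 204 bases before it. The Fabp7 stretch held 1 Sox motif, 160 bases before the start, and the Sox2 stretch held none of the 4 motifs. No matches overlapped. Sox motifs were present in 36.94% of all 33469 RefSeq promoters in stretches of the same length, TATA boxes in 12.93%, CAGCTG in 11.97% and CAGATG in 13.96%. The Sox2 stretch was the richest of the 3 in G and C, at 64.4%, against 51.6% for Fabp7, 44% for Dcx and a median of 51.2% over all promoters. A promoter entry was matched for 6 of the 7 measured members, and Sox4 had no entry. A motif match describes letters only.

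All values are log2 intensities after the authors' normalization, and medians of the 16 arrays lay between 6.35 and 6.44. Replicate arrays correlated with Pearson's r of 0.990 to 0.996 across clusters, and no pair was a copy. Of 4 measured dentate granule cell genes 2 were called higher in hippocampus. Prox1, a granule cell transcription factor, ranged from 7.31 to 8.07 on the hippocampal arrays and from 5.71 to 6.81 on the cortical arrays. C1ql2, a synaptic protein of mossy fibres, ranged from 7.86 to 8.77 and from 5.93 to 6.53. Of the other two, Penk, a neuropeptide precursor that striatal neurons also make, was lower in hippocampus (-1.36, limma adjusted p 0.00977), and Tdo2 was not called (-0.01). Of 10 cortical projection neuron markers only Fezf2, Neurod6 and Slc17a7 had a named cluster, and all 3 were higher in hippocampus, so the cortical label had no positive check from that list.

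The second array of the cortical 6-week control group stood apart. All 12 measured genes of a 19-gene list for olfactory bulb and migrating neuroblasts were at their highest of 16 arrays there. The mean of the list was 8.72 on that array and 6.98 to 7.52 on the other 15. Cdhr1, a cadherin of mitral cells, read 8.58 there against at most 6.96 elsewhere. Th, the dopamine-synthesis enzyme of periglomerular cells, read 8.33 against at most 6.29, and Trh read 8.21 against at most 6.89. The first array of the same group instead had the highest mean of 9 striatal projection neuron genes, 8.70 against 6.84 on the second array. The part of these differences in the results for the members was not tested. Among the hippocampal arrays, the second 6-week control and the second 6-week curcumin array had the highest means of 9 choroid plexus genes, 8.84 and 8.32, against 6.06 to 6.82 on the other 6.

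Curcumin was compared with control chow in each tissue at each duration, the question being whether members of the lineage differed with the diet. No member passed an adjusted p of 0.05 in limma in any of the 4 comparisons. Over all clusters, 0% were called in hippocampus at 6 weeks, 0.106% in cortex at 6 weeks, 0.00366% in hippocampus at 12 weeks and 3.24% in cortex at 12 weeks. An unadjusted p under 0.05 was reached by 1 member in cortex at 6 weeks, Fabp7, and by 0 in the other 3 comparisons. Over both durations, with 4 arrays a side, 0 members were called in either tissue, where 0.00366% of all clusters were called in hippocampus and 1.15% in cortex. The 95% intervals were widest for Dcx, which reached from -1.09 to 0.40 in hippocampus at 12 weeks, so that equality of the diets was not shown either.

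**Figure D1:**
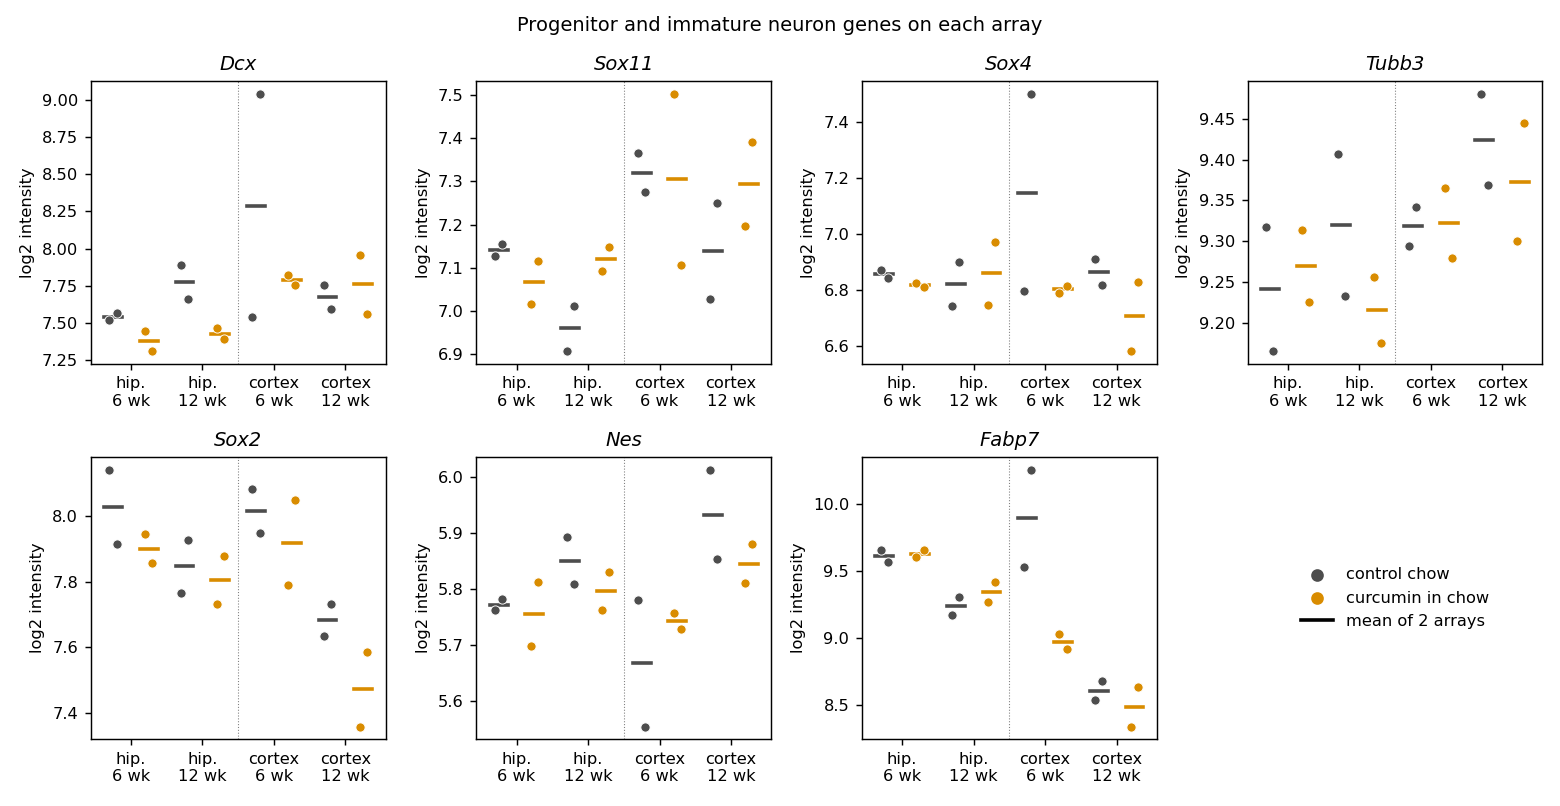
Log2 intensity (vertical axes, each with its own range) of the 7 measured genes on each of the 16 arrays, grouped by tissue (hip., hippocampus) and weeks of feeding; grey points are control arrays, orange points curcumin arrays, and bars the mean of 2 arrays. One cortical 6-week control array lies above the other 15 for Dcx (9.04), Sox4 (7.50) and Fabp7 (10.26).

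Dcx, the microtubule-associated protein of migrating and immature neurons (transcript cluster 10932746, chrX:112227455-112370291), was the member in which the hippocampal diets separated on every array. At 6 weeks its hippocampal values were 7.52 and 7.57 on control chow and 7.45 and 7.31 on curcumin. At 12 weeks they were 7.89 and 7.66 on control chow and 7.47 and 7.39 on curcumin. All 4 curcumin arrays thus lay below all 4 control arrays, a separation that 1.62% of all clusters showed in either direction. The log2 difference was -0.16 (SE 0.34, limma adjusted p 0.9999) at 6 weeks, -0.35 (SE 0.34, adjusted p 0.9995) at 12 weeks and -0.25 (SE 0.24) over both durations. None of these passed the test. The SE was shared over all 16 arrays and so carried the gap between the cortical 6-week controls. In a fit to the 8 hippocampal arrays the SE over both durations fell to 0.065 and the limma adjusted p was 0.894, and without the cortical array that stood apart the SE at 12 weeks was 0.12 and the limma adjusted p 0.820.

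In cortex Dcx gave no such pattern. The 6-week control arrays read 7.54 and 9.04, and the curcumin arrays 7.82 and 7.76, between them. At 12 weeks the control arrays read 7.76 and 7.60 and the curcumin arrays 7.96 and 7.56, which overlapped. The 6-week difference of -0.50 (SE 0.34, limma adjusted p 0.640) depended on which control array was kept. Leaving out the second gave 0.25 (limma adjusted p 0.881), and leaving out the first gave -1.25 (limma adjusted p 0.00328). On the second array Dcx exceeded the next highest of 16 arrays by 1.08, a gap that ranked 27 among all clusters.

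Sox11, an SRY-related factor switched on in committed progenitors (cluster 10889415, chr6:49736773-49738794), lay on opposite sides of its controls at the 2 durations in hippocampus. At 6 weeks the control arrays read 7.13 and 7.16 and the curcumin arrays 7.02 and 7.12. At 12 weeks the control arrays read 6.91 and 7.01 and the curcumin arrays 7.09 and 7.15. The curcumin arrays lay below the controls at 6 weeks and above them at 12 weeks, with differences of -0.08 (SE 0.12) and 0.16 (SE 0.12) that did not pass the limma test. In cortex the diets overlapped, with differences of -0.02 at 6 weeks and 0.15 at 12 weeks.

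Sox4, which acts together with Sox11 in young neurons (cluster 10794967, chr17:35876298-35881004), was close to level in hippocampus. Its values there at 6 weeks were 6.87 and 6.84 on control chow and 6.82 and 6.81 on curcumin, a difference of -0.04 (SE 0.18) without overlap. At 12 weeks the control arrays read 6.74 and 6.90 and the curcumin arrays 6.75 and 6.97. The 12-week arrays overlapped. In cortex at 6 weeks the control arrays read 6.80 and 7.50 and the curcumin arrays 6.79 and 6.82. The difference was -0.35 (SE 0.18, limma adjusted p 0.480). It was 0.0063 without the second control array and -0.70 (limma adjusted p 0.0151) without the first. At 12 weeks in cortex it was -0.16 (SE 0.18, limma adjusted p 0.808), with control arrays at 6.91 and 6.82 and curcumin arrays at 6.58 and 6.83.

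Tubb3, the tubulin of neurons (cluster 10808702, chr19:68365687-68374741), had the narrowest range of the 7. Its 16 values spanned 9.17 to 9.48, and the diets overlapped in all 4 comparisons, with differences from -0.10 to 0.03 (SE 0.084 each). The widest of these intervals reached from -0.29 to 0.08, in hippocampus at 12 weeks.

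The stem cell genes were likewise not called with diet. Sox2, the factor that maintains neural stem cells (cluster 10814847, chr2:119465131-119467542), was lower by the means on curcumin in all 4 comparisons, with differences from -0.21 to -0.04 (SE 0.12 each). Its arrays did not overlap only in cortex at 12 weeks, where the control arrays read 7.64 and 7.73 and the curcumin arrays 7.36 and 7.58. That difference of -0.21 had a limma adjusted p of 0.454. Nes, the progenitor intermediate filament that vessel cells also make (cluster 10816409, chr2:175735715-175745631), overlapped between diets in all 4 comparisons. Its values spanned 5.55 to 6.01, and its diet differences ran from -0.09 to 0.08 (SE 0.083).

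Fabp7, the fatty acid binding protein of radial glia and astrocytes (cluster 10830223, chr20:37667125-37673299), had the widest diet difference, and it lay in cortex at 6 weeks. The control arrays read 9.53 and 10.26 and the curcumin arrays 9.03 and 8.92. Both curcumin arrays lay below both controls. The difference was -0.92, or 0.527-fold (SE 0.18, limma adjusted p 0.0862). It was -1.29 (limma adjusted p 9.28e-04) without the first control array and -0.56 (limma adjusted p 0.343) without the second, which is the array rich in olfactory bulb genes. All 12 measured bulb list genes were also lower on curcumin by the means in this comparison, with a median difference of -1.02 against 0.00 over all clusters, which was -0.30 without the array. All 14 myelin genes (median -0.79, and -0.96 without it) and all 11 microglial genes (median -0.41, and -0.31 without it) ran the same way. The mean of 11 astrocyte markers was 9.45 on both control arrays and 9.20 and 9.24 on curcumin. That of 9 striatal genes was 8.70 and 6.84 on control chow and 6.73 and 7.65 on curcumin. The mean of 3 cortical projection neuron genes ran the other way, 8.32 and 8.03 on control chow and 8.89 and 9.10 on curcumin. The part of these cells was not tested. The study listed Fabp7 among its changed cortical genes from these same arrays, so the value here is not independent evidence of its direction. In cortex at 12 weeks the difference was -0.12 (SE 0.18), and in hippocampus it was 0.02 at 6 weeks and 0.11 at 12 weeks, with overlapping arrays.

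**Figure D2:**
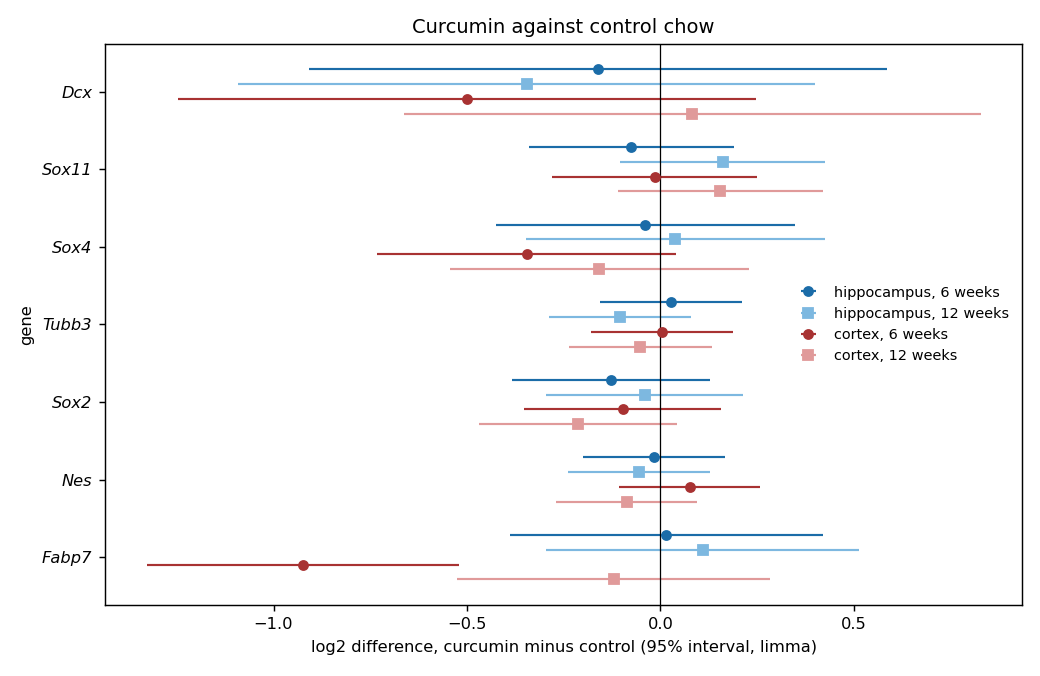
Log2 difference of curcumin minus control (horizontal axis) for each gene, with 95% limma intervals on 16 arrays; blue marks hippocampus and red cortex, circles 6 weeks and squares 12 weeks. The interval of Fabp7 in cortex at 6 weeks, centred on -0.92, is the one that leaves out 0, and no difference reached an adjusted p of 0.05.

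Members whose curcumin and control arrays did not overlap were counted beside the share of all clusters that did not. In hippocampus at 6 weeks it was 3 of 7, all lower on curcumin (Dcx, Sox11, Sox4), where 35.0% of all clusters did not overlap. In cortex at 6 weeks it was 1 of 7 (Fabp7, lower) with a background of 36.3%. In hippocampus at 12 weeks it was 2 of 7 (Sox11 higher, Dcx lower) with 27.4%, and in cortex at 12 weeks 1 of 7 (Sox2, lower) with 44.3%. With 2 arrays on each side such separations were common across the array. The test of whether a diet difference changed with duration or tissue called 0 of the 7 members in each of its 4 forms. Over all clusters the change with duration was called for 0% in hippocampus and 1.47% in cortex, and the tissue difference for 0% at 6 weeks and 0.190% at 12 weeks.

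The members' called differences were with the length of feeding and with tissue. On control chow alone, limma called 1 member in cortex, Fabp7, where 8.85% of all clusters were called, and 0 in hippocampus, where 4.27% were called. Over both diets, a comparison added after the data were seen, 2 members were called in cortex (Fabp7 and Sox2, both lower at 12 weeks; 9.27% of all clusters) and 0 in hippocampus (10.8%).

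Fabp7 fell between 6 and 12 weeks in cortex. Its 4 cortical arrays ran from 8.92 to 10.26 (median 9.28) at 6 weeks and from 8.34 to 8.68 (median 8.58) at 12 weeks. No 12-week array reached any 6-week array, a separation that 10.4% of all clusters showed in cortex. The log2 difference was -0.89, or 0.540-fold (SE 0.13, limma adjusted p 0.00224), and -0.71 (limma adjusted p 0.00192) without the array rich in bulb genes. On control chow alone it was -1.29 (SE 0.18, limma adjusted p 0.00356), and -0.93 (limma adjusted p 0.0126) without that array. In hippocampus the values were 9.66, 9.57, 9.61 and 9.66 at 6 weeks and 9.17, 9.30, 9.27 and 9.42 at 12 weeks. The 12-week arrays again lay below all 6-week arrays, as 18.9% of all clusters did in one direction or the other. That difference, -0.33 (SE 0.13, limma adjusted p 0.137), was not called on 16 arrays. It was called in the fit to the 8 hippocampal arrays (limma adjusted p 0.0132) and without the cortical array that stood apart (limma adjusted p 0.0167). The 9 choroid plexus genes were also all lower at 12 weeks by the means (median -0.996). On the 2 hippocampal arrays rich in them Fabp7 read 9.57 and 9.66, against 9.66 and 9.61 on the other 6-week arrays. Its difference was -0.35 without the control array of the 2 and -0.32 without the curcumin array. The relatives Fabp5 (differences of 0.09 in cortex and -0.02 in hippocampus) and Fabp3 (0.11 and 0.07), which bind fatty acids in other brain and body cells, were not called.

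Sox2 was lower at 12 weeks in cortex as well. The 6-week arrays read 8.08 and 7.95 on control chow and 7.79 and 8.05 on curcumin, and the 12-week arrays 7.64, 7.73, 7.36 and 7.58. The durations did not overlap. The difference was -0.39, or 0.763-fold (SE 0.082, limma adjusted p 0.0141). Its call was lost in the fit to the 8 cortical arrays (limma adjusted p 0.0561) and without the first 12-week control array (0.0564) or the first 12-week curcumin array (0.0526), and held without the array rich in bulb genes (-0.42, limma adjusted p 0.0267). In hippocampus the difference was -0.14 (SE 0.082, limma adjusted p 0.350), and the arrays overlapped. Nes ran the other way in cortex, from 5.55 to 5.78 at 6 weeks and from 5.81 to 6.01 at 12 weeks, with no overlap and a difference of 0.18 (SE 0.059, limma adjusted p 0.0787), or 0.13 (limma adjusted p 0.242) without that array. The other 4 members overlapped between durations in both tissues.

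Astrocyte genes were examined beside Fabp7 and Sox2, since astrocytes express both. Of 11 measured astrocyte markers, 2 were lower and 0 higher in cortex at 12 weeks by the limma test. These were Mlc1, a membrane protein of astrocyte endfeet (-0.26, limma adjusted p 0.0135), and Slc39a12, a zinc transporter (-0.35, limma adjusted p 0.0151). The median of the 11 was -0.10 against -0.01 over all clusters. In cortex the mean of the list was 9.20 to 9.45 at 6 weeks and 8.97 to 9.32 at 12 weeks, which overlapped. In hippocampus the ranges were 9.43 to 9.48 and 9.48 to 9.60. Bulb list genes were lower in cortex at 12 weeks too (12 of 12 negative, 3 called), with a median of -0.05 without the array that stood apart. Without that array other lists had wider medians in this comparison. They were -0.76 for 9 striatal genes, -0.43 for 14 myelin genes and 0.39 for 3 cortical projection neuron genes. The list means of these cells overlapped between the durations. The part of any of these lists in the Fabp7 and Sox2 differences was not tested.

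**Figure D3:**
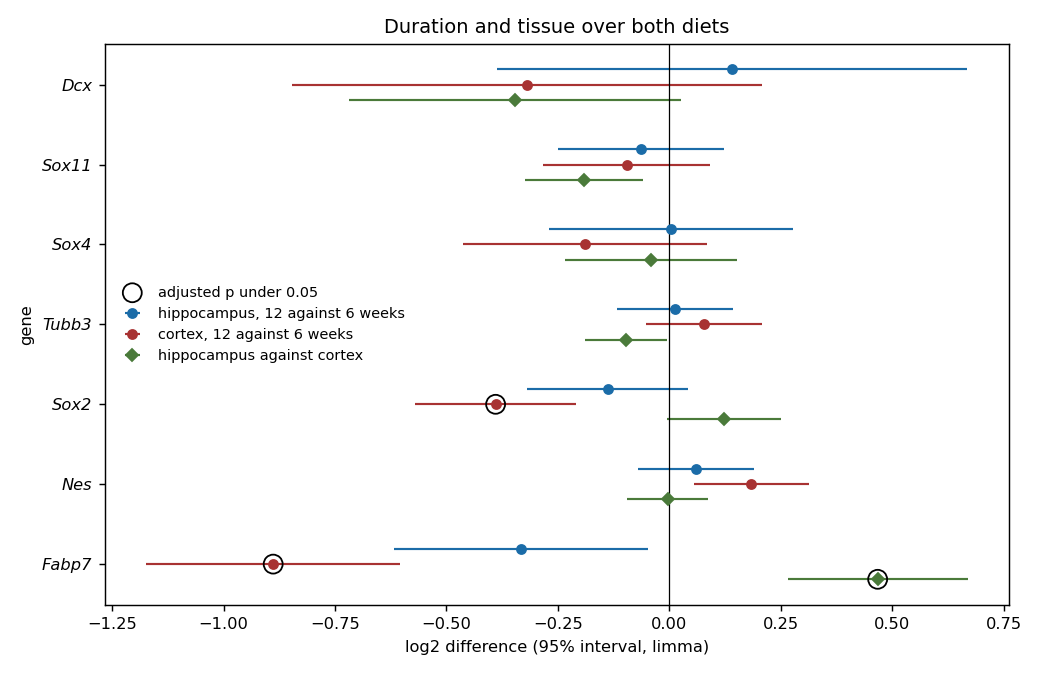
Log2 difference (horizontal axis) with 95% limma intervals for each gene over both diets; blue and red circles are 12 minus 6 weeks in hippocampus and cortex, green diamonds hippocampus minus cortex, and black rings mark an adjusted p under 0.05. Rings surround Fabp7 (-0.89) and Sox2 (-0.39) in cortex and Fabp7 (0.47) between tissues.

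Between tissues the members differed little. Both tissues were dissected from the same rats. On control chow 0 of 7 were called, where 4.21% of all clusters were. Without the array rich in bulb genes 1 was, Fabp7, whose difference went from 0.17 to 0.36 (limma adjusted p 0.0447). Over all 16 arrays, again a comparison added after the data were seen, Fabp7 was called, as were 9.67% of all clusters. Fabp7 ranged from 9.17 to 9.66 (median 9.50) in hippocampus and from 8.34 to 10.26 (median 8.80) in cortex, and was higher in hippocampus by 0.47, or 1.38-fold (SE 0.092, limma adjusted p 0.00786), and by 0.56 (limma adjusted p 1.49e-04) without that array. The ranges overlapped through the 6-week cortical controls. Of the 11 astrocyte markers 6 were higher in hippocampus and 0 lower in the same comparison. Sox11 leaned to cortex, with hippocampal arrays from 6.91 to 7.16 and cortical arrays from 7.03 to 7.50 and a difference of -0.19 (SE 0.060, limma adjusted p 0.0737). Dcx, whose hippocampal source is the dentate gyrus, was not higher in hippocampus: it ranged there from 7.31 to 7.89 (median 7.49) and in cortex from 7.54 to 9.04 (median 7.76), a difference of -0.35 (SE 0.17, limma adjusted p 0.278). The Dcx difference was -0.53 without the first cortical 6-week control array and -0.16 without the second, the array rich in bulb genes.

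The olfactory bulb list was set against the 3 members that peaked on the same array. Apart from that array, Dcx ranged from 7.31 to 7.96, Sox4 from 6.58 to 6.97 and Fabp7 from 8.34 to 9.66. The array read 9.04, 7.50 and 10.26. Nes, by contrast, was at its lowest there, 5.55, while Sox11, Tubb3 and Sox2 lay inside the range of the other 15. Of all clusters 11.0% were highest on that array. Means of other lists peaked there too. Microglia read 7.79 against at most 7.72 elsewhere, and endothelium and mural cells 7.72 against 7.62. Stem and radial glia genes read 7.89 against 7.77, and ensheathing glia and meninges 7.52 against 7.43. The mean of cortical projection neuron genes was at its lowest there, 8.03. The correlation of Dcx with Sox4 over 16 arrays was 0.69 and turned to -0.51 over the other 15, and thus rested on 1 array.

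**Figure D4:**
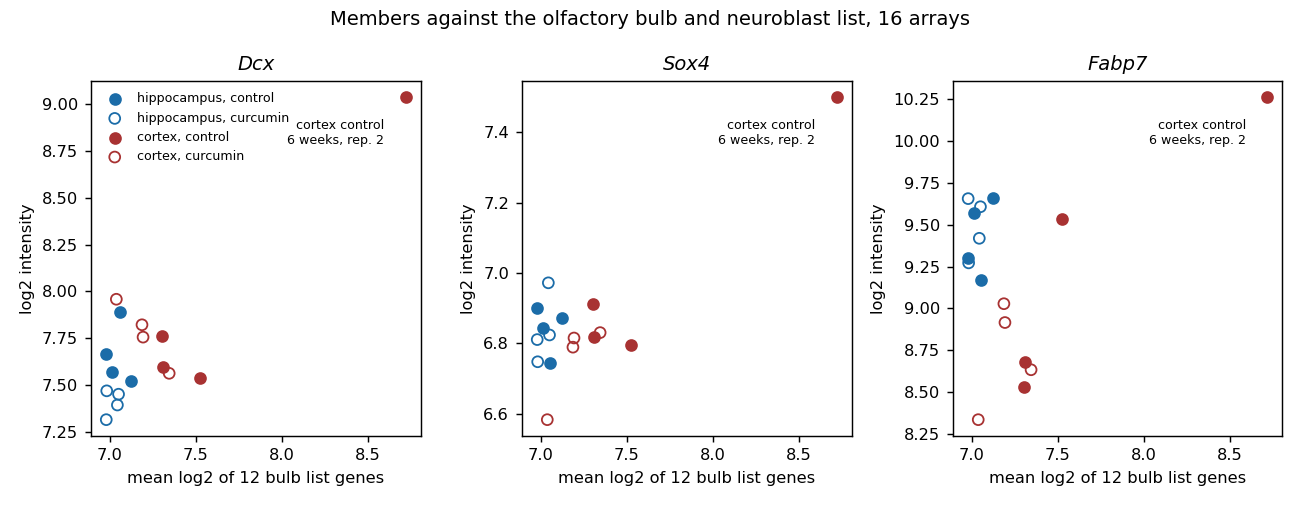
Log2 intensity of Dcx, Sox4 and Fabp7 (vertical axes) against the mean log2 intensity of 12 olfactory bulb and neuroblast genes (horizontal axis) on each of 16 arrays; blue is hippocampus, red cortex, filled points control and open points curcumin. The second cortical 6-week control array lies alone at a list mean of 8.72, and the other 15 arrays lie between 6.98 and 7.52.

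The named gene most like each member across the 16 arrays was found by Pearson's r, as a description over arrays that share tissue, diet and duration. For Dcx they were S100a5 (r 0.92), Trdn (0.90) and Dlx1 (0.90), which fell to 0.56, 0.31 and 0.35 over the 15 other arrays. For Sox4 they were Cyp39a1 (0.94), Fgl2 (0.94) and Cd14 (0.93), which fell to 0.64, 0.72 and 0.65. Those likenesses rested largely on the array that stood apart. Fabp7 was most like Smpdl3a (0.93, and 0.91 without that array), which lies at chr20:37679004-37701979, close to the end of Fabp7 itself, and next to Dpp6 (0.90) and Metap2 (0.90). Sox2 was most like Dstyk (0.92), Pcsk6 (0.92) and Eif3b (0.92), each still at 0.92 or 0.93 without the array. Sox11 was most like Tmem164 (0.89), Syt10 (0.86) and Clcn1 (0.83), Tubb3 most like Myl9 (0.82), Cort (0.82) and Zfp949 (0.82), and Nes most like Pgrmc1 (0.84), Snap47 (0.83) and Ldb2 (0.83). Sox2 and Fabp7 correlated with each other at 0.74, and at 0.79 without the array.

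The wider lineage was read from 4 lists: stem and radial glia genes, commitment genes, immature neuron genes and cell cycle genes. With diet almost none of them was called. Among 18 stem and radial glia genes 0 were called in any of the 4 diet comparisons, although 8 had an unadjusted p under 0.05 in cortex at 6 weeks, as had 3293 of all 27342 clusters. Their median differences were -0.07 and 0.08 in hippocampus at 6 and 12 weeks and -0.10 and -0.12 in cortex, against medians within 0.01 of 0 over all clusters. Of 15 commitment genes Elavl4, a neuronal RNA-binding protein, was higher on curcumin in cortex at 6 weeks (0.54, SE 0.08, limma adjusted p 0.0488), a call lost without the array rich in bulb genes (0.47, limma adjusted p 0.327). Neurod1, which drives granule cell differentiation, stood at 0.87 in that comparison (SE 0.17, limma adjusted p 0.0758). The study listed Neurod1 among its changed cortical genes from these same arrays, so its value here is not independent evidence. The mean of the 15 commitment genes was at its lowest, 6.30, on the control array rich in bulb genes, against 6.45 to 6.90 elsewhere.

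Among 25 immature neuron genes Cd24, a surface glycoprotein of neuroblasts, was lower on curcumin in cortex at 12 weeks (-0.54, SE 0.08, limma adjusted p 0.00769), and 0 others were called with diet. Of 29 cell cycle genes, which stand here beside the unmeasured Mki67, 0 were called in any diet comparison. Their medians were -0.03 and -0.03 in hippocampus and -0.05 and -0.02 in cortex at 6 and 12 weeks. Ccnd2, the D-type cyclin of granule neuron precursors, had the lowest limma p of that list in hippocampus, at -0.24 (SE 0.08, adjusted p 0.9999) at 6 weeks and -0.43 (SE 0.08, adjusted p 0.292) at 12 weeks.

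With diet over both durations, compared with 4 arrays a side, 0 genes of the 4 lists were called in either tissue. With duration and tissue some were. Over both diets, 5 of 25 immature neuron genes were higher and 0 lower at 12 weeks in cortex, where 9.27% of all clusters were called. In hippocampus 4 were higher and 1 lower, where 10.8% of all clusters were called. The list also holds genes that mature neurons express, such as Map1b and Stmn2, so these counts do not measure immature neurons. Dcx itself was not called with duration, at -0.32 in cortex (limma adjusted p 0.494) and 0.14 in hippocampus (limma adjusted p 0.804). Tuba1a, the alpha tubulin of growing neurites, rose by 0.78 (SE 0.05, limma adjusted p 6.5e-05) in cortex and 0.79 (SE 0.05, limma adjusted p 4.05e-05) in hippocampus. Stmn3, a stathmin that destabilises microtubules, rose by 0.37 and 0.30, and Tubb2a by 0.26 and 0.23, while Dclk1, a kinase related to doublecortin, fell by 0.17 in hippocampus. Tubulin genes have near-identical copies, so probes of Tuba1a, Tubb2a and Tubb2b may read more than 1 gene. In the same comparison of stem and radial glia genes, Hopx, a homeodomain protein of quiescent stem cells (-0.40, limma adjusted p 0.0395) and Egfr, the growth factor receptor of activated progenitors (-0.19, limma adjusted p 0.0418) were lower in cortex at 12 weeks, and 0 of 18 were called in hippocampus. Without the array rich in bulb genes neither Hopx (limma adjusted p 0.131) nor Egfr (0.0670) was called, nor was Tubb2a in cortex (0.0516), while the calls of Tuba1a and Stmn3 held in both tissues.

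Between tissues over all arrays, where 9.67% of all clusters were called, 6 of 15 commitment genes were higher in hippocampus and 0 lower. The granule cell regulators led: Prox1 by 1.57, Neurod1 by 1.05 and Bhlhe22 by 1.14 (limma adjusted p 2.79e-06, 1.76e-05 and 1.76e-04). Ccnd2 was higher in hippocampus by 0.47 (SE 0.04, limma adjusted p 3.14e-05). Immature neuron genes split, with Cd24 (0.36), Stmn2 (0.28) and Map1b (0.26) among 5 that were higher in hippocampus and Stmn1 (-0.50) and Gap43 (-0.28) among 4 that were higher in cortex.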

How the data were processed

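The 8 genes and all gene lists were chosen with earlier results of these data known. Per the labels and the study's methods, RNA from pools of 3 rats was hybridised to Affymetrix arrays, which the methods call exon arrays and the annotation used here treats as a gene array. The authors deposited log2 values made with RMA in Affymetrix Expression Console, which corrects background, normalizes quantiles and summarises probes; no software version or genome build is given in the sources used here. The deposited values were used as they stand. Of 27342 clusters, 15097 had 1 symbol, 323 several and 11922 none in the platform annotation; 15067 of the 15097 matched RefSeq (GRCr8) by gene ID. A gene with several clusters was read from the one with the highest mean.

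Group means of the 8 groups were fitted over 16 arrays in limma 3.58.1 (R 4.3.3; 8 residual degrees of freedom), with Benjamini-Hochberg adjustment over all clusters and calls at an adjusted p under 0.05. SE values are moderated, and intervals cover 95%. The script was tested on simulated data. The text names the 8 genes, the 3 genes most correlated with each and, in each list, up to 4 genes with the largest moderated t. Some comparisons pool diets or durations; 3 of them and the fit without the cortical array that stood apart were added after the data were seen. Alternatives were other scalings, filters, weights, blocks, tissue-wise fits, leaving out each array, and the study's fold rule without a test (1.5 up, 0.66 down). The number of arrays limits the precision. Hippocampus and cortex came from the same rats, but no source says that a replicate number marks the same pool in both; same-numbered deviations from group means correlated between tissues at -0.15, 0.12, 0.15 and 0.16, not all over 0.1, and the numbers were not taken as pairs.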

Additional observations from a re-analysis of the deposited data

Results flagged for a closer look

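The Sox11 diet differences in hippocampus had opposite directions on every array at 6 and 12 weeks: both curcumin arrays lay below both controls at 6 weeks (-0.08) and above both at 12 weeks (0.16), so that the 2 differences stood 0.24 apart on the log2 scale. The test of that change in limma gave an unadjusted p of 0.192 and an adjusted p of 0.99996. The opposite directions are therefore not a called difference. Of all clusters in hippocampus, 35.0% did not overlap between diets at 6 weeks and 27.4% at 12 weeks, in either direction. The share of clusters that reversed between the durations was not counted, so the pattern cannot be called particular to Sox11.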

How the results depend on the processing

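Of 248 counts of called members recomputed under 25 settings, 229 were unchanged or within 1.5 times of the count reported and 19 moved. The curcumin count in cortex at 6 weeks was 0 in the reported fit, 1 with trend and robust shrinkage (Fabp7), 1 by the 1.5-fold rule and 0 to 3 when 1 array was left out. Leaving out 1 array gave 0 to 3 for curcumin in cortex over both durations, 0 to 2 for tissue on control chow, 0 to 2 for the change of the cortical curcumin effect with duration, 0 to 2 for the tissue difference of that effect at 6 weeks, 1 to 4 for duration in cortex on control chow, 1 to 5 for duration in cortex over both diets, 0 to 1 for duration in hippocampus over both diets and 1 to 2 for tissue over all arrays. The upper ends came with the first cortical 6-week control array left out, except that the call in hippocampus came without the second. Between tissues Dcx joined Fabp7 without the first cortical 6-week control array. Sox11 joined Fabp7 there without the second cortical 6-week curcumin array. Duration in cortex on control chow gave 3 calls after quantile normalization and 2 after median centring, with Nes added (0.29 and 0.28). Fits to the 8 arrays of a tissue gave 1 call for duration in hippocampus and 1 in cortex.

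Among member differences that were called under at least 1 setting of the same comparison, directions turned for Dcx, Sox4 and Fabp7, with 1 of the cortical 6-week controls left out. Leaving out 1 array at a time, Dcx ranged from -1.25 to 0.25 for curcumin in cortex at 6 weeks, from -0.58 to 0.17 over both durations, from -0.70 to 0.052 for tissue on control chow, from -1.36 to 0.14 for duration in cortex on control chow, from -0.69 to 0.056 for it over both diets, from -0.17 to 1.33 for the change of the cortical curcumin effect with duration and from -1.09 to 0.41 for the tissue difference of that effect at 6 weeks. Sox4 ranged from -0.70 to 0.0063 for curcumin in cortex at 6 weeks, from -0.34 to 0.0087 for tissue and from -0.63 to 0.070 for duration on control chow, and Fabp7 from -0.0076 to 0.36 for tissue. Those 2 arrays differ in bulb and striatal genes, and the cause was not tested. Taking the mean of all clusters of a symbol was moot, since each member had 1 cluster. With the replicate number as a block, 0 of 16 counts moved: the curcumin counts stayed at 0 of 7 in both tissues and durations. No source says what that number shares between groups, so nothing is drawn from this setting. Array weights came out equal within each group, so they could not weigh the array that stood apart below its partner.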
